A study of Mus musculus with 17 samples.

Results

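Primordial germ cells are the embryonic precursors of eggs and sperm. The response to ionizing radiation (IR) was examined here in germ cells purified from mouse embryos at E11.5 (E, embryonic day), in 2 irradiated and 3 non-irradiated libraries. Of 23361 genes in the E11.5 table, the 11315 with an FPKM (fragments scaled to transcript length and library size) of 1 or more in at least 2 of the 5 libraries were analysed. The whole series holds 17 libraries, and the same genes are set beside the E13.5 female germ cells of the series, 3 irradiated and 3 non-irradiated. The labels name no radiation dose, interval after exposure, strain, genotype, sex at E11.5, purification method or number of embryos per library. Nor do they state if the replicates of a group are different embryos or litters, and the p-values therefore reflect only how much these libraries varied, which may be technical.

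In most cells, ionizing radiation breaks DNA, the kinases ATM and CHK2 signal the break, and the transcription factor p53 is released from its inhibitor MDM2. p53 then raises the transcription of genes for cell cycle arrest, apoptosis and repair, and of its own inhibitors. Primordial germ cells at this age divide quickly, express pluripotency factors such as OCT4, and have not yet entered female meiosis or male mitotic arrest.

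The purity of the cells was checked against marker genes. All 12 germ cell markers passed the filter, and their mean level lay between 6.83 and 6.85 on the log2(FPKM + 1) scale in irradiated libraries and between 6.76 and 7.06 in non-irradiated libraries. The similar means hide differences between single markers. For 9 of the 12 the log2 difference, irradiated minus non-irradiated, was below 0, with a median of -0.29. Both irradiated libraries lay below all non-irradiated ones for 4 markers (33.3%, against 9.51% of all genes) and above them for 0. Of 9 pregranulosa markers only 1, the granulosa cell factor gene Foxl2, was listed at 0 in all 5 libraries. The 9 summed to 15.4 to 17.1 FPKM with IR and to 12.1 to 17.1 FPKM without. Supporting cell precursor markers summed to 29.1 to 36.6 FPKM with IR and to 25.6 to 32.8 FPKM without. Traces of some other cell types differed more between libraries. The embryonic globin gene Hbb-y was at 389 and 6.15 FPKM in the irradiated libraries, against 165, 0.591 and 217 FPKM in the non-irradiated libraries. The 8 tested macrophage markers had a mean log2 level of 3.18 in non-irradiated replicate 2 and of 1.66 to 2.06 in the other 4 libraries. Irradiated replicate 1 held 16 genes, each at 10 FPKM or more, that stood at least 4-fold above every other library on the FPKM + 1 scale. The same count was 0 in irradiated replicate 2, and 0, 1 and 7 in non-irradiated replicates 1, 2 and 3. Depth, which the files do not state, was estimated from the spacing of low values at 17.1 and 21.1 M fragments with IR, against 16.9, 20.3 and 12 M without. In bulk samples such as these, fewer cells of a type and less RNA per cell cannot be told apart.

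**Figure D1:**
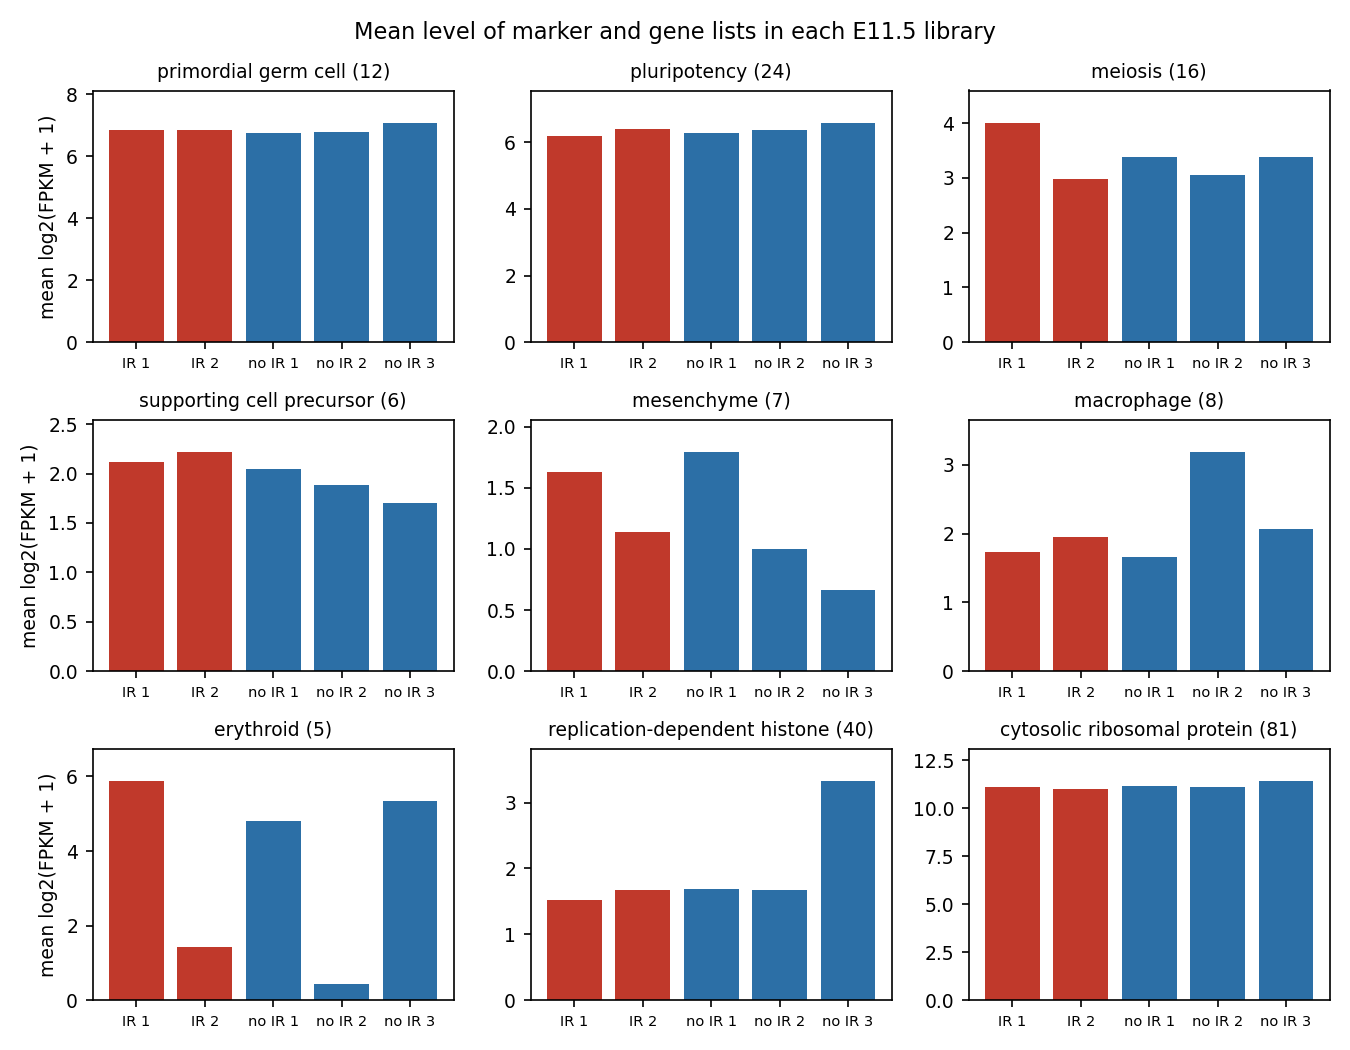
Mean log2(FPKM + 1) of the tested members of 9 gene lists in each library, with 1 bar per library, irradiated libraries in red and non-irradiated libraries in blue, and the number of tested genes in brackets. Germ cell markers lie between 6.76 and 7.06 in all 5 libraries, while macrophage markers peak in non-irradiated replicate 2 and histone genes in non-irradiated replicate 3.

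Between irradiated and non-irradiated E11.5 germ cells, 2 of 11315 genes passed the test (limma on log2(FPKM + 1), Benjamini-Hochberg adjusted p under 0.05), which is 0.0177% of those tested. The table held 1 called gene in each direction (0.00884% each), and both are genes for small nucleolar RNAs, guides for the chemical marking of ribosomal and other RNAs. Snord23 belongs by name to the C/D box class, which directs methylation of the ribose, and Snora5c to the H/ACA box class, which directs conversion of uridine to pseudouridine. Their sequences from GENCODE M21 are shown because these are the only genes called. Capitals mark a TGATGA and a CTGA, the letters of the C and D boxes, in Snord23, and the ACA that lies 3 bases from the end of Snora5c. They lie at chr7:15938762-15938870 and chr11:6620319-6620454 of GRCm38, both on the minus strand.
Snord23: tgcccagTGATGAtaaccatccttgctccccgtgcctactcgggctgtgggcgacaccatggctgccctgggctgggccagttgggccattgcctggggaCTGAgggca
Snora5c: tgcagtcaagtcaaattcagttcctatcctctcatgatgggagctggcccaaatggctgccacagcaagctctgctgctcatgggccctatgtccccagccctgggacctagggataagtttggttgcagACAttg

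Snord23 was higher with IR (adjusted p by limma 0.00199). It was at 66.9 and 27.1 FPKM in the irradiated libraries and listed at 0 in each of the 3 non-irradiated libraries. Snora5c was lower with IR (adjusted p by limma 0.000143). It was listed at 0 in both irradiated libraries, against 93.0, 51.4 and 86.6 FPKM in the non-irradiated libraries. The groups of neither gene overlapped, and no fold is given because one group of each is listed at 0. Snord23 passed the filter only through the irradiated libraries and Snora5c only through the non-irradiated ones. Both therefore had to differ, and the group at 0 shows no spread. Snord23 lies within Nop53 on the same strand and outside its annotated exons, and Snora5c lies within Tbrg4 and overlaps an annotated exon of it, so reads of the host may be counted there. The host genes did not separate the groups. Nop53, listed under its older name Gltscr2, was at 178.7 and 180.2 FPKM with IR, against 152.4, 193.3 and 207.2 FPKM without. Tbrg4 was at 54.1 and 50.4 FPKM with IR, against 45.7, 52.4 and 47.0 FPKM without.

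Listed zeros were common among genes of this kind. Of 119 small nucleolar and Cajal body RNA genes in the table, 67 were listed at 0 in all 5 libraries and 39 were tested. Among those 39, 15 were at 0 in 1 library and at 10 FPKM or more in another library of the same group. Snora15, for example, was at 84.1 and 0 FPKM in the irradiated libraries, against 119, 0 and 524 FPKM in the non-irradiated ones. Snora69 had the same pattern as Snora5c, with 0 in both irradiated libraries against 152, 11.47 and 77.3 FPKM without IR, but did not pass the test (adjusted p by limma 0.602), although it passed with a pseudocount of 0.1 and without non-irradiated replicate 2. Without irradiated replicate 1 or without replicate 2, Snord23 no longer passed the filter, and with no filter on low values its adjusted p by limma was 0.196. What the variation in such short transcripts contributed to the 2 calls was not tested.

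Every other gene fell short of the threshold. Before adjustment, 151 genes had a limma p under 0.05 with higher values after IR (1.33%) and 207 with lower values (1.83%). In 970 genes (8.57%) both irradiated libraries lay above all non-irradiated libraries, and in 1076 (9.51%) both lay below. The median log2 difference over all tested genes was -0.02, with quartiles of -0.17 and 0.14, and the median standard error was 0.216. With 2 libraries against 3, an exact two-sided permutation test of a single gene cannot give a p below 0.2. Values below are therefore given library by library, and differences are in log2(FPKM + 1), irradiated minus non-irradiated, with the standard error of the fit. This scale understates the change of low genes.

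**Figure D2:**
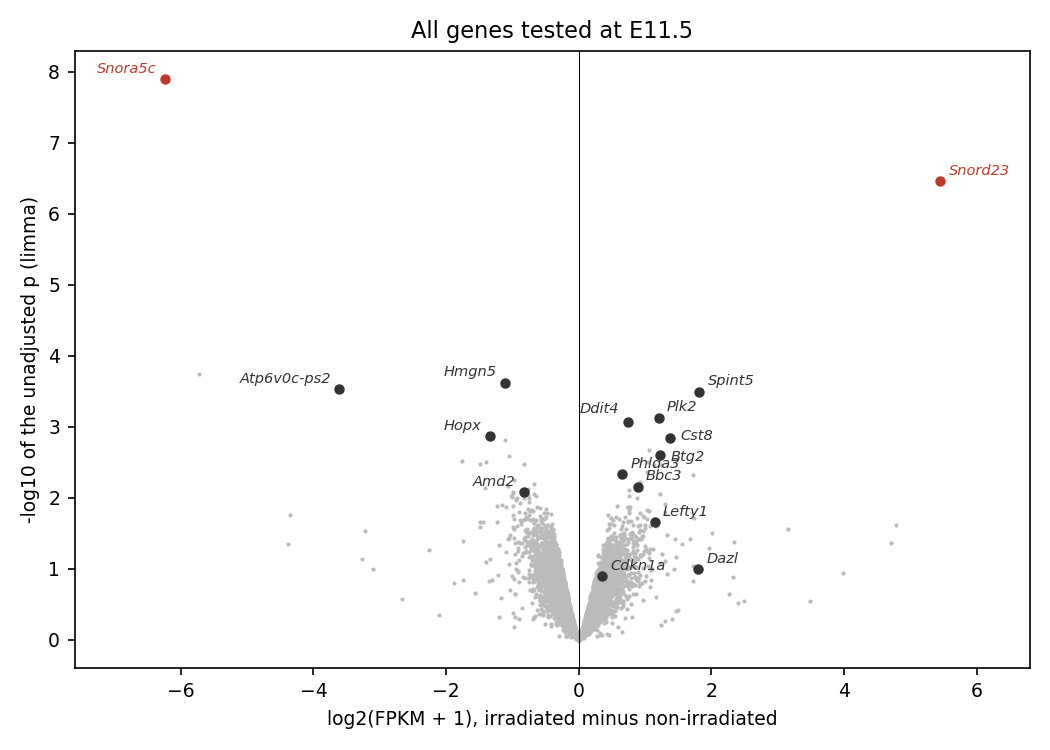
Each point is 1 of the 11315 tested genes, with the log2(FPKM + 1) difference, irradiated minus non-irradiated, on the horizontal axis and -log10 of the unadjusted limma p on the vertical axis. Snora5c and Snord23, in red, are the 2 genes that passed the test, and Plk2, Ddit4, Btg2, Phlda3 and Bbc3 lie together on the right below them.

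Among genes of the p53 pathway, 10 had separated groups with higher values after IR, including Plk2, Btg2, Bbc3, Phlda3 and Ddit4, and no gene passed the test. Of 69 listed p53 pathway genes, 65 were in the table and 60 were tested. Over the 60 genes there were 0 calls, against 0.0177% of all genes, and limma's unadjusted p was under 0.05 for 6 of them, which were all higher after IR. Irradiated libraries lay above all others for 10 of the 60 (16.7%, against 8.57% of all genes) and below for 4 (6.67%, against 9.51%). The median difference of the list was 0.08, against -0.02 for all tested genes. Leaving out non-irradiated replicate 1 gave a median of 0.01, with 13 genes above (21.7%, against 16.3% of all genes under that setting) and 10 below (16.7%, against 17.9%).

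The sensors and the factor itself showed overlapping groups. Trp53, which encodes p53, was at 118.9 and 165.2 FPKM in irradiated libraries, against 98.9, 179.1 and 177.4 FPKM in non-irradiated libraries. Atm, whose kinase responds to broken DNA, was at 10.3 and 8.77 FPKM with IR, against 9.40, 6.88 and 7.54 FPKM without. Chek2, the checkpoint kinase downstream of ATM, was at 24.2 and 26.3 FPKM with IR, against 27.7, 27.0 and 22.5 FPKM without. For Trp53 the low value was that of replicate 1 in each group. In the list of 21 damage checkpoint genes, 2 were separated upwards (9.52%, against 8.57% of all genes) and none downwards (against 9.51%). The median difference was 0.04. The 17 homologous recombination genes had a median of 0.02 and the 12 end joining genes one of 0.08. None of these 3 lists held a gene with an unadjusted limma p under 0.05.

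Of 13 arrest genes of the p53 pathway, 3 were separated upwards (23.1%, against 8.57% of all genes). Plk2, a Polo-like kinase that p53 induces, was at 11.1 and 7.77 FPKM in irradiated libraries, against 3.78, 2.96 and 3.72 FPKM in non-irradiated libraries. Btg2, an antiproliferative p53 target, was at 15.9 and 11.2 FPKM with IR, against 7.57, 4.29 and 4.13 FPKM without. Sesn2, a stress-induced inhibitor of mTORC1, was at 19.7 and 20.5 FPKM with IR, against 14.4, 15.5 and 13.1 FPKM without. In all 3 genes each irradiated library was above each non-irradiated one. Their differences were 1.20 (SE 0.228), 1.22 (SE 0.280) and 0.46, with unadjusted limma p of 0.000748, 0.00247 and 0.0231, and the adjusted p by limma was 0.974 for Plk2 and Btg2.

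Cdkn1a, which encodes the cell cycle inhibitor p21, was at 18.0 and 24.6 FPKM in irradiated libraries, against 14.5, 15.9 and 19.0 FPKM in non-irradiated libraries. The lower irradiated value fell inside the non-irradiated range, and the 95% interval of the difference was -0.12 to 0.81. Gadd45a, a growth arrest gene, was low in a single library, with 14.6 and 47.2 FPKM after IR against 45.5, 50.1 and 50.3 FPKM without. The 13 arrest genes as a list had a median difference of 0.27, the highest of the 4 p53 lists. Of them 3 were separated upwards (23.1%, against 8.57% of all genes) and 1, Sesn1, downwards (7.69%, against 9.51%).

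**Figure D3:**
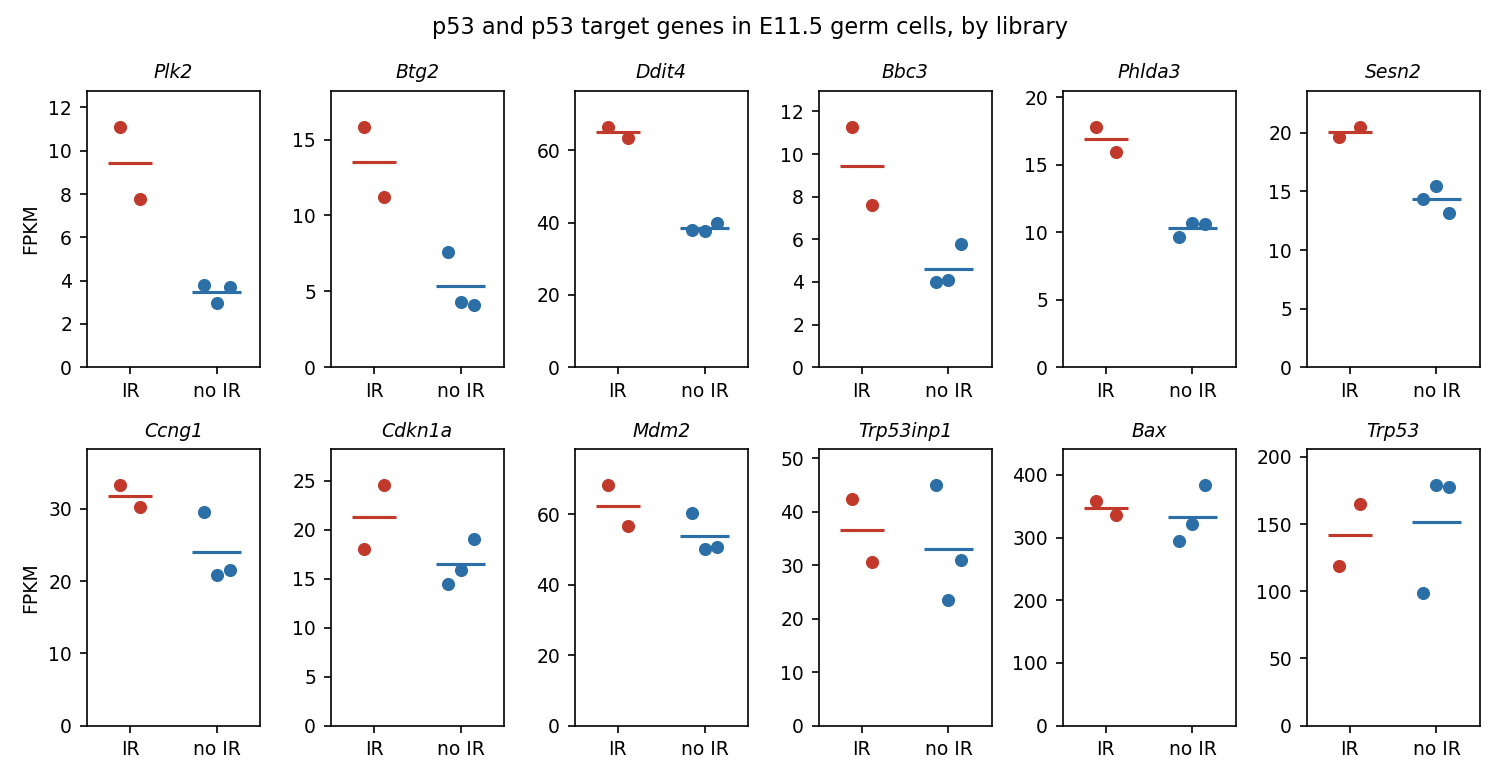
FPKM of p53 (Trp53) and 11 of its target genes, with 1 point per library, irradiated (IR, red, 2 libraries) left of non-irradiated (no IR, blue, 3 libraries), and a bar at each group mean. The groups are apart for Plk2, Btg2, Ddit4, Bbc3, Phlda3, Sesn2 and Ccng1 and overlap for Cdkn1a, Mdm2, Trp53inp1, Bax and Trp53.

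Of 16 tested apoptosis genes of the p53 pathway, 2 were separated upwards (12.5%, against 8.57% of all genes) and 1 downwards (6.25%, against 9.51%). Bbc3, which encodes the death-promoting protein PUMA, was at 11.3 and 7.60 FPKM with IR, against 4.002, 4.07 and 5.78 FPKM without (difference 0.89, SE 0.246, unadjusted limma p 0.00695). Phlda3, which restrains the survival kinase Akt, was at 17.8 and 15.9 FPKM with IR, against 9.64, 10.7 and 10.6 FPKM without (difference 0.66, SE 0.170, unadjusted limma p 0.00469). Both irradiated libraries lay above all others for both genes. Bax, an executioner of the mitochondrial pathway, was at 357.6 and 335.7 FPKM with IR, against 295.0, 321.9 and 383.7 FPKM without, with full overlap. The gene separated downwards was Trp63, which encodes the p53 relative p63, at 1.90 and 1.86 FPKM with IR, against 2.18, 2.38 and 1.98 FPKM without, a gap smaller than the range of the non-irradiated group. The list had a median difference of -0.11, and 10 of its genes were below 0 and 6 above, where 47.2% of all genes were above 0.

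Some death genes fell under the filter. Pmaip1, which encodes the PUMA-related protein NOXA, was at 17.7 and 0.656 FPKM in the irradiated libraries, against 0.965, 0.420 and 0.910 FPKM in the non-irradiated libraries. Its high value was confined to irradiated replicate 1. Fas, a death receptor gene, reached at most 0.277 FPKM in any library, and Tnfrsf18, Dram1 and Tap1 were likewise not tested. Of the 12 caspases and executioners, 2 were separated upwards and 2 downwards (16.7% each, against 8.57% and 9.51% of all genes). The anti-apoptotic gene Bcl2l1 was at 16.5 and 14.9 FPKM with IR, against 12.1, 13.6 and 13.9 FPKM without.

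Of 9 tested feedback genes of p53, 1 was separated upwards and 1 downwards (11.1% each, against 8.57% and 9.51% of all genes). Mdm2 was at 68.3 and 56.5 FPKM with IR, against 60.4, 50.1 and 50.8 FPKM without, with overlap. Ccng1, a cyclin gene that p53 induces, was at 33.3 and 30.3 FPKM with IR, against 29.6, 20.8 and 21.6 FPKM without. Its groups were separated by a gap smaller than the range within the non-irradiated group. The 9 feedback genes had a median difference of -0.02. Among 22 p53 pathway genes in repair and metabolism the median was 0.15, and Ddit4 stood out. Ddit4, an inhibitor of mTORC1 that also responds to low oxygen and glucocorticoids, was at 66.6 and 63.4 FPKM with IR, against 37.9, 37.6 and 40.0 FPKM without (difference 0.74, SE 0.143, unadjusted limma p 0.000851, adjusted p by limma 0.974). The replicates agreed closely within both groups.

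Promoter windows of RefSeq (GRCm38.p6, 250 bases before to 50 after the gene start) were searched for the core of a p53 site, a pair of 4-letter cores separated by 6 bases, which covers both strands. Each core was CATG or the letters CAAG, their reverse complement CTTG, or the palindrome CTAG. A match was found for 12 of the 48 tested p53 pathway genes with a window, against 2212 of 27025 genes (8.19%). Of the 9 separated upwards that had a window, 2 held a match, Plk2 and Bbc3. These are shown with Cdkn1a, whose groups overlapped, with the match in capitals. It begins 3 bases before the start that defines the window shown in Plk2 (chr13:110394794-110395093), 94 in Bbc3 (chr7:16309333-16309632) and 48 in Cdkn1a (chr17:29090729-29091028), all on the plus strand. A match describes letters and not binding.
Plk2: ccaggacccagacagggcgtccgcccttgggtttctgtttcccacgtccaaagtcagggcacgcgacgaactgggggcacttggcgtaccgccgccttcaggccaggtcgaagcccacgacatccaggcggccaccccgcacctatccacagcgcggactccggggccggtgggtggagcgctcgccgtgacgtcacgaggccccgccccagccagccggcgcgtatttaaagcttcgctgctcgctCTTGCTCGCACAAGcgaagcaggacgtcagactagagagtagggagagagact
Bbc3: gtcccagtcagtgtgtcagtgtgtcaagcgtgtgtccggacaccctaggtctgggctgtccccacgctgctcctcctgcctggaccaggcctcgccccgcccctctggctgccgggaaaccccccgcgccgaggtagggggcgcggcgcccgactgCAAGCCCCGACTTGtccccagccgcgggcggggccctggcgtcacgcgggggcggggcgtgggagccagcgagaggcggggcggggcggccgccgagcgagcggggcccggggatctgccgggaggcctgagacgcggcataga
Cdkn1a: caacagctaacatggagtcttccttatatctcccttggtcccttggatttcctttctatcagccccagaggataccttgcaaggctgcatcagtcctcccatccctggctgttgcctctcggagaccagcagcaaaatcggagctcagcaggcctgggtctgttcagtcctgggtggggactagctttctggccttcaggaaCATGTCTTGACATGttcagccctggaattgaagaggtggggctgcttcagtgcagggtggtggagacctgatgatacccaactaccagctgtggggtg

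The same p53 pathway genes were set beside the E13.5 female germ cells. The days stand in tables normalized apart, so the difference between days was not tested. At E13.5 in females 38 of the 60 rose and 2 fell (limma, adjusted p under 0.05), where 21.8% of 12852 genes rose and 22.9% fell, and the list's median difference was 0.80. The 2 that fell were Trp53 (-0.77) and Rfwd2 (-0.22), which encodes a ubiquitin ligase that acts on p53. Markers of other cells moved at that day too. In E13.5 females 8 of 8 tested macrophage markers rose (median difference 1.66), as did 3 of 3 pregranulosa markers (median 3.44), while 4 of 6 supporting cell precursor markers rose and 2 fell (median 2.54). Of 12 germ cell markers 8 fell and none rose (median -0.64). Their part in any E13.5 value given here was not tested. For 34 of those 38 genes the E13.5 difference lay above the 95% interval of the E11.5 difference. The 38 were picked for their rise at E13.5, and the interval leaves out the error of the E13.5 value. That count is therefore no comparison of the days. For 27 of the 38 the E11.5 difference was above 0, where 47.2% of all genes tested at E11.5 were above 0. The E11.5 groups were separated upwards for 8 of the 38. Plk2 averaged 50.8 FPKM in irradiated and 5.44 FPKM in non-irradiated E13.5 females, a difference of 2.96. Ccng1 averaged 218 FPKM in irradiated and 48.0 FPKM in non-irradiated E13.5 females, a difference of 2.15 beside 0.41 at E11.5. For Bbc3 and Ddit4 the differences were 1.22 and 1.14 at E13.5 beside 0.89 and 0.74 at E11.5.

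**Figure D4:**
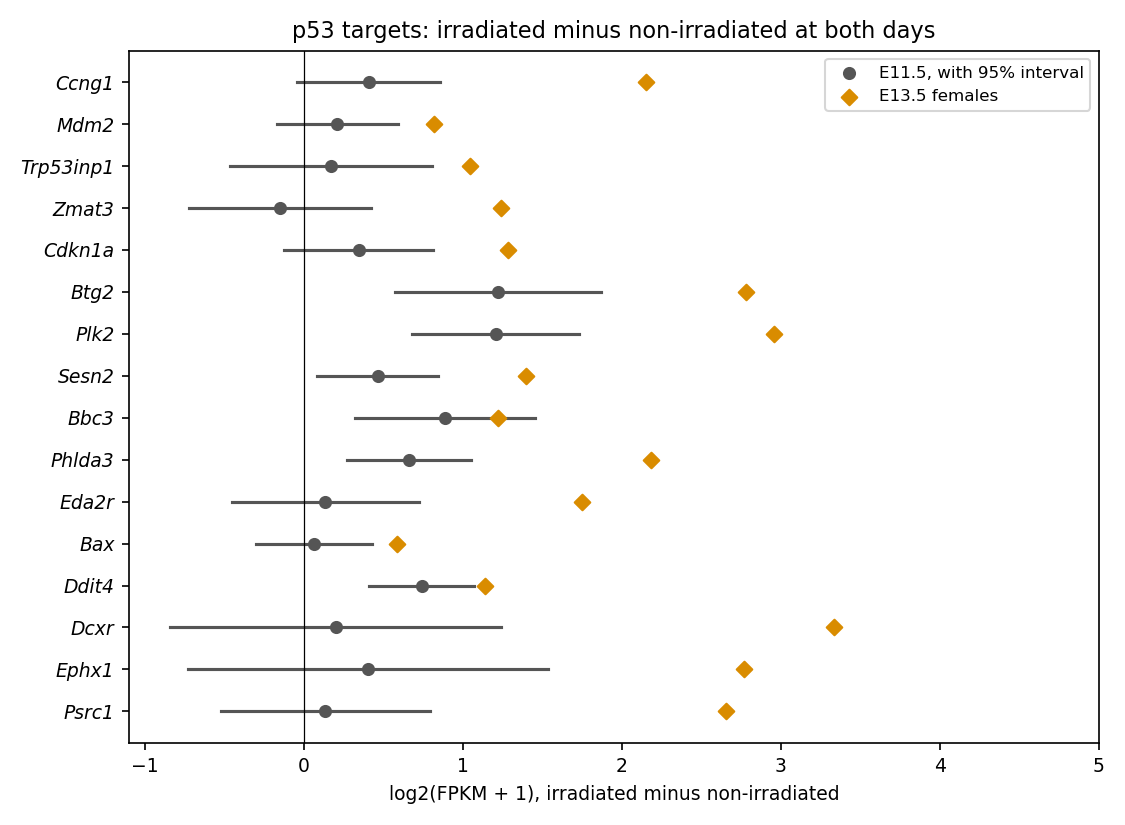
Log2(FPKM + 1) difference, irradiated minus non-irradiated, of 16 p53 targets at E11.5 (grey points with 95% intervals) and in E13.5 females (orange diamonds, without intervals). The E13.5 diamonds lie to the right of the E11.5 interval for every gene shown except Bbc3, whose E13.5 difference of 1.22 is inside it. All 16 were chosen from the list genes that rose in E13.5 females, and list genes that did not rise are not shown.

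Over all tested genes, the 12 with the smallest p among those separated upwards, with predicted and small RNA genes set aside, were Spint5, Plk2, Ddit4, Cst8, Heg1, Btg2, Mzb1, Wnt6, Mcam, Rimbp2, Phlda3 and Arhgdig. Spint5 was at 3.42 and 2.18 FPKM with IR, against 0, 0.205 and 0 FPKM without (adjusted p by limma 0.602). Cst8, a cystatin family gene, was at 2.34 and 2.08 FPKM with IR, against 0.474, 0.0983 and 0.165 FPKM without. Wnt6, a gene for a secreted Wnt ligand, was at 2.32 and 1.70 FPKM with IR, against 0.412, 0.395 and 0.0443 FPKM without. All 3 genes were below 1 FPKM in every non-irradiated library and above it in both irradiated ones, so they passed the filter only through the irradiated libraries and had to differ. In all, 48 genes passed in this way, Snord23 among them, and 117, with Snora5c and D17Ertd648e, passed only through the non-irradiated libraries. In E13.5 females Cst8 averaged 78.8 FPKM with IR and 1.45 FPKM without, and Wnt6 averaged 50.7 FPKM with IR and 1.03 FPKM without, and both rose (limma, adjusted p 5.6e-06 and 1.7e-05), beside the rise of supporting cell and macrophage markers at that day given above.

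Mcam, a cell adhesion gene, was at 12.6 and 6.58 FPKM with IR, against 3.23, 3.48 and 4.15 FPKM without. Heg1, a transmembrane receptor gene, was at 5.28 and 3.81 FPKM with IR, against 1.56, 1.75 and 1.61 FPKM without. For both, irradiated replicate 1 was the highest library. Of the 9 genes that did not pass the filter through the irradiated libraries alone, 6 rose in E13.5 females and 1, Rimbp2, fell, where 21.8% of all genes rose.

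On the lower side the 12 genes with the smallest p were Hmgn5, Atp6v0c-ps2, Hopx, Hist1h2bj, Insl3, D17Ertd648e, Gstp1, Ceacam10, Amd2, Sec14l4, Fuom and AA467197. Hmgn5, a nucleosome-binding protein gene on the X chromosome, measured 190.3 and 177.2 FPKM with IR, against 486.9, 350.9 and 366.1 FPKM without (difference -1.11, SE 0.176, adjusted p by limma 0.602). Hopx, which encodes a small homeodomain protein, was at 1.04 and 0.997 FPKM with IR, against 5.38, 2.83 and 4.49 FPKM without (difference -1.34). Gstp1, a glutathione transferase gene, was at 27.5 and 42.7 FPKM with IR, against 51.7, 60.1 and 65.1 FPKM without. The irradiated libraries agreed closely for Hmgn5 and Hopx and differed for Gstp1.

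Some of these low values are uncertain in identity. Atp6v0c-ps2 is a processed pseudogene that may share reads with its parent gene; it was at 0.0378 and 2.77 FPKM with IR, against 11.7, 30.1 and 34.7 FPKM without. It did not pass the test (adjusted p by limma 0.602), and passed in 2 of 15 alternatives, with the replicate block (0.0198) and without irradiated replicate 2 (0.0360). Amd2, an adenosylmethionine decarboxylase gene of the polyamine pathway, was at 73.8 and 43.8 FPKM with IR, against 114.1, 86.1 and 106.2 FPKM without. The table also has a joined entry Amd1,Amd2, with a mean of 30.5 FPKM with IR (SD 31.3, n = 2), against 4.53 FPKM without (SD 7.77, n = 3), so reads may be divided between the entries. Of the 11 lower genes tested in E13.5 females, 1 fell there, Amd2, and 3 rose, where 22.9% of all genes fell and 21.8% rose. The 11 include D17Ertd648e, which passed the filter only through the non-irradiated libraries.

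Cell cycle genes were described in 2 lists. Of 35 genes for the G1/S transition and DNA replication, 9 were separated downwards (25.7%, against 9.51% of all genes). Upwards it was 1 (2.86%, against 8.57%). A difference below 0 was found for 28 and above 0 for 7, where 47.2% of all genes were above 0. None passed the test. Pcna, the replication clamp, was at 521.1 and 592.9 FPKM with IR, against 706.0, 675.7 and 675.2 FPKM without. Gins2, a subunit of the replicative helicase complex, was at 12.7 and 12.7 FPKM with IR, against 16.4, 17.1 and 18.4 FPKM without (difference -0.41, unadjusted limma p 0.0340). Cdk2, the cyclin-dependent kinase of this transition, was the 1 gene separated upwards, at 20.1 and 13.1 FPKM with IR, against 10.3, 11.1 and 12.7 FPKM without.

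The median difference of the G1/S list was -0.14, and it was -0.04 without irradiated replicate 1 and -0.23 without irradiated replicate 2. Under quantile normalization 4 genes were separated downwards (11.4%, against 7.49% of all genes), with a median of -0.09. Under median scaling it was 9 (25.7%, against 10.1% of all genes), with 0 upwards. The 32 G2/M genes had a median difference of 0.01. Of them 3 were separated upwards (9.38%, against 8.57% of all genes) and 1 downwards (3.12%, against 9.51%). Ect2, which drives cytokinesis, was at 59.1 and 44.2 FPKM with IR, against 43.2, 35.3 and 36.9 FPKM without. In E13.5 females 26 of the same 32 G2/M genes fell and none rose, with a median of -0.69, and 20 of the 35 G1/S genes fell, where 22.9% of all genes fell and germ cell markers fell as well. The difference between the days was not tested.

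**Figure D5:**
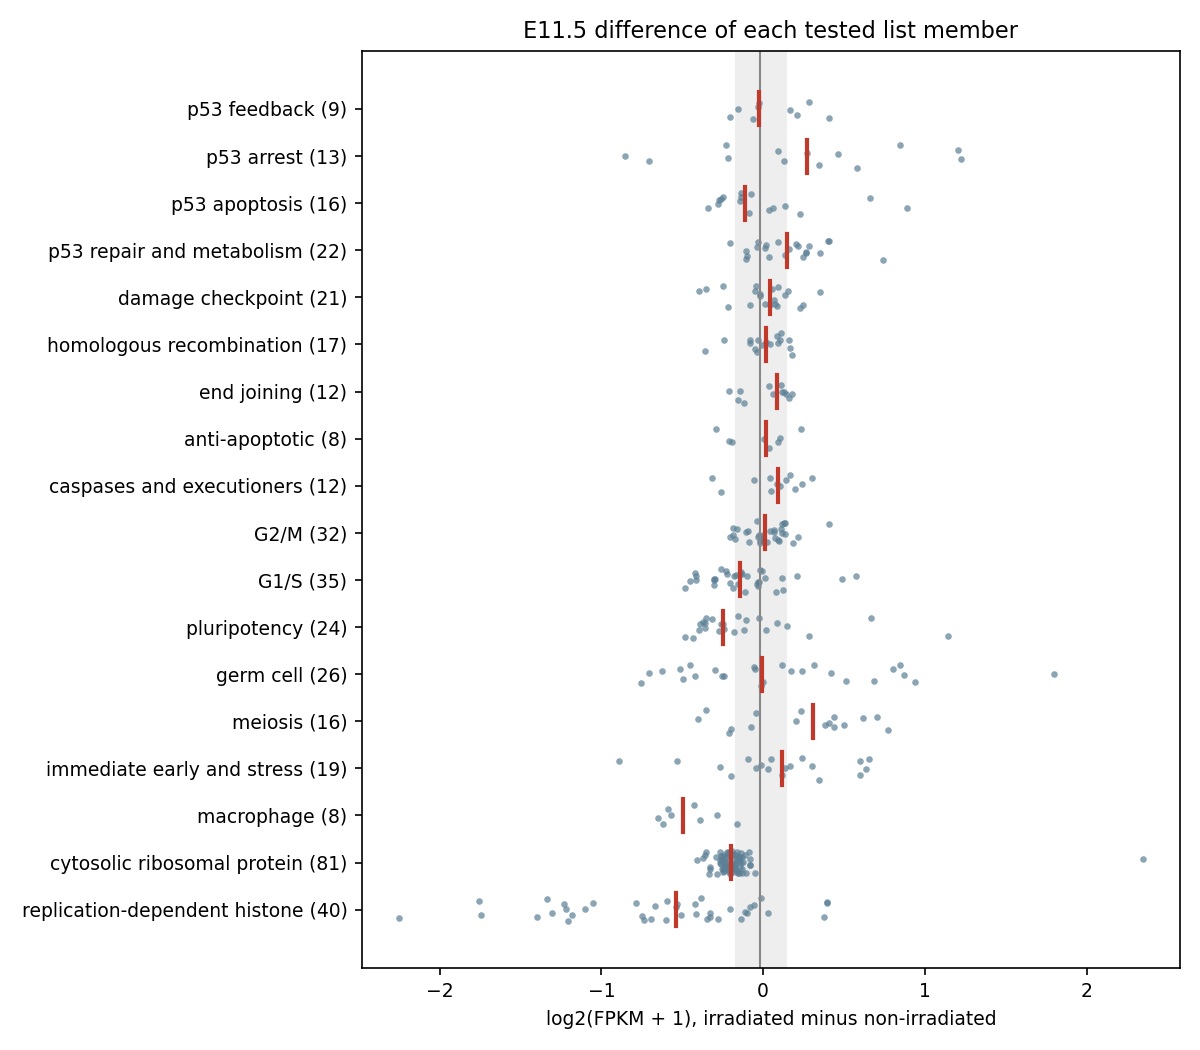
Log2(FPKM + 1) difference at E11.5, irradiated minus non-irradiated, of each tested member (points, spread vertically for legibility) of 18 gene lists, with the number of tested genes in brackets and a red bar at the list's median. The grey band spans the quartiles of all tested genes, -0.17 to 0.14, and the grey line their median, and most list medians fall inside the band.

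Pluripotency genes had a median difference of -0.25 over 24 tested genes. Of them 18 were below 0 and 6 above, where 47.2% of all genes were above 0. However, 1 library weighed on the median. Without irradiated replicate 1 the median was -0.07, and without irradiated replicate 2 it was -0.42. The OCT4 gene Pou5f1 measured 934.8 and 1194 FPKM with IR, against 1272, 1366 and 1205 FPKM without (difference -0.28, SE 0.158). Sox2, its partner, was at 119.9 and 194.4 FPKM with IR, against 190.4, 206.7 and 191.1 FPKM without. Nanog was at 93.3 and 144.4 FPKM with IR, against 147.6, 148.4 and 123.1 FPKM without. In each of these genes irradiated replicate 1 was the lowest library, and irradiated replicate 2 was near the non-irradiated ones.

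A pair of Nodal antagonists went the other way. Lefty2 was at 123.7 and 110.6 FPKM with IR, against 75.9, 54.0 and 96.2 FPKM without (difference 0.67, SE 0.235, unadjusted limma p 0.0220). Lefty1 was at 69.1 and 22.2 FPKM with IR, against 15.1, 17.3 and 19.8 FPKM without (difference 1.14, SE 0.403, unadjusted limma p 0.0221). The groups of both genes were apart, narrowly for Lefty1 in irradiated replicate 2, and neither passed the test.

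Of 26 tested germ cell genes, 2 were separated upwards (7.69%, against 8.57% of all genes) and 4 downwards (15.4%, against 9.51%). The median difference was -0.01. Kit, the receptor for the survival factor KITL, was at 56.2 and 68.5 FPKM with IR, against 54.1, 64.6 and 70.7 FPKM without. Prdm1, which encodes BLIMP1, the factor that specifies the lineage, was at 15.8 and 16.4 FPKM with IR, against 16.2, 17.3 and 16.9 FPKM without. Nanos3, an RNA-binding protein gene needed for survival of the cells, was at 21.3 and 23.5 FPKM with IR, against 24.0, 36.5 and 38.8 FPKM without. Kit and Prdm1 overlapped, and Nanos3 was separated downwards by a small gap (difference -0.52, SE 0.224, unadjusted limma p 0.0508).

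Some genes that germ cells switch on after reaching the gonad were highest in irradiated replicate 1. Dazl, an RNA-binding protein gene of gonadal germ cells, was at 411.8 and 50.9 FPKM with IR, against 58.5, 12.4 and 92.6 FPKM without. Ddx4, the germ cell RNA helicase gene, was at 150.8 and 57.9 FPKM with IR, against 60.8, 29.1 and 63.1 FPKM without. Sycp1, of the synaptonemal complex of meiosis, was at 20.1 and 0.292 FPKM with IR, against 3.49, 0.955 and 2.76 FPKM without. All 3 were highest in irradiated replicate 1, while irradiated replicate 2 was inside or below the non-irradiated range. The 16 tested meiosis genes had a median difference of 0.31, which was -0.22 without irradiated replicate 1 and 0.65 without irradiated replicate 2. Irradiated replicate 1 also held the Sertoli cell genes Amh and Cst9 at 8.18 and 6.41 FPKM, where the other 4 libraries had at most 0.201 and 0.245 FPKM. The 12 Sertoli markers together summed to 90.1 and 51.1 FPKM with IR, against 55.2, 40.8 and 50.8 FPKM without, with 1 and 3 of them listed at 0 with IR, against 3, 5 and 6 without. Their part in the result was not tested.

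Genes of the translation machinery showed a small and even offset. Of 81 tested genes with cytosolic ribosomal protein symbols, 49 were separated downwards (60.5%, against 9.51% of all genes) with a median difference of -0.20. The count depended on the scaling. Under quantile normalization 1 was separated downwards and 5 upwards, with a median of 0.02. Under median scaling 44 stayed separated downwards (54.3%, against 10.1% of all genes) and 1 upwards. None passed the test, and none of those that were lower had an unadjusted limma p under 0.05. Rplp0, of the ribosomal stalk, was at 2521 and 2715 FPKM with IR, against 2890, 3225 and 3075 FPKM without under the deposited scaling. The list is highest in non-irradiated replicate 3, and without that library the median was -0.13. Rps27 alone was separated upwards, at 207.4 and 10.6 FPKM with IR, against 9.20, 9.44 and 7.45 FPKM without. The joined entry Gm9846,Rps27, which is not among the 81, was at 3565 and 3683 FPKM with IR, against 4769, 4446 and 5225 FPKM without. It was separated downwards (difference -0.41, SE 0.145, unadjusted limma p 0.0235). Reads may be divided between the 2 entries.

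Replication-dependent histone genes, whose mRNAs mostly lack poly(A) tails, had a median difference of -0.54 over 40 tested genes, among which near-identical copies may divide reads. Of the 40, 7 were separated downwards (17.5%, against 9.51% of all genes) and none upwards. Hist1h3f and the joined entry Hist1h4m,Hist1h4n, among these 7, passed the filter only through the non-irradiated libraries. The filter therefore favoured their direction. The offset followed 1 library, since the median was -0.06 without non-irradiated replicate 3. Hist1h4d was at 4.21 and 0.427 FPKM with IR, against 3.20, 2.66 and 48.5 FPKM without. The same library listed Lars2, a mitochondrial leucyl-tRNA synthetase gene, at 3055 FPKM, where the other 4 had at most 442.9 FPKM. It also listed 9428 genes at 0, against 6960 to 7704 in the other libraries, and had the lowest estimated depth.

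Immediate early and stress genes had a median difference of 0.12 over 19 tested genes. Junb, an AP-1 transcription factor gene, was at 7.73 and 6.85 FPKM with IR, against 4.77, 4.95 and 3.74 FPKM without (difference 0.60, unadjusted limma p 0.0200). Ier3, an early stress gene, was at 7.77 and 20.0 FPKM with IR, against 18.2, 31.7 and 24.5 FPKM without (difference -0.89, unadjusted limma p 0.0430). Junb was separated and Ier3 overlapped through irradiated replicate 2. The 8 tested macrophage markers all had a difference below 0, with a median of -0.50, and the median was 0.01 without non-irradiated replicate 2, the library in which they were highest. Over 9 listed macrophage genes in the table, the sum was 20.8 and 26.5 FPKM with IR, against 19.8, 77.5 and 32.6 FPKM without. Of 15 interferon response genes 5 were tested, and none had separated groups.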

How the data were processed

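Total RNA of purified germ cells had been depleted of ribosomal RNA by hybridization and made into libraries with the NEBNext Ultra II kit, per the labels' protocols. FPKM had been computed and deposited by the authors in separate tables for E11.5 and E13.5. The submitters' processing notes name mm10 and DESeq2; the aligner and counter were not given in the sources used here. Values as small as those of a model estimate occur, so an exact 0 is called listed at 0. Symbols were matched to GENCODE M21 (GRCm38).

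Genes with an FPKM of 1 or more in at least 2 of 5 libraries were tested with limma 3.58.1 (limma-trend, empirical Bayes, two-sided, Benjamini-Hochberg, threshold 0.05) in R 4.3.3 on log2(FPKM + 1); Python 3.11.15 served for the rest. E13.5 females were tested in a fit of all 12 E13.5 libraries, with a filter of 1 FPKM in 3 libraries. The male libraries, whose labels conflict, entered it only for the spread. For irradiated female replicate 1 the cell type label reads E11.5 while the title reads E13.5, and the library was treated as E13.5. The pipeline was tested on simulated data. DESeq2 was not run, because FPKM are not counts. Depth was estimated from 1592 genes with FPKM of at most 0.15, of which 67.2% to 74.7% of values per library were whole fragments within 0.1. Depth limits precision, and no counting interval is given.

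Named genes were those called, the 12 with the smallest p each way among genes with separated groups, a panel of p53, pluripotency and germ cell genes, genes that stand out in 1 library, and extremes of the lists. Some others, such as Snora15, Snora69 and Bcl2l1, were chosen after their values were seen. The members and lists were chosen with earlier results of these data known. Alternative settings changed the pseudocount (0.5 and 0.1), the filter (none or 5 FPKM), the scaling (quantile or median), the library weights, the moderation (robust) and the design (replicate number as a term), or left out small RNA genes or each library.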

Additional observations from a re-analysis of the deposited data

Results flagged for a closer look

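Among 88 genes that the naming rule chose at E11.5, list extremes aside, 6 had separated groups in opposite directions at the 2 days. Every irradiated library lay on one side of all non-irradiated libraries at E11.5 and on the opposite side in E13.5 females. The rule picked 12 genes in each direction for their separated E11.5 groups. In E13.5 females 21.8% of all genes rose and 22.9% fell. The share of all genes with such opposite groups is not given. The difference between the days was not tested, because the tables were normalized apart. Rimbp2, a gene for a synaptic scaffold protein, had a log2 difference of 1.03 at E11.5 and of -0.64 in E13.5 females. The pseudogene Atp6v0c-ps2 had a log2 difference of -3.61 at E11.5 and of 0.78 in E13.5 females. Gstp1 had a log2 difference of -0.76 at E11.5 and of 0.60 in E13.5 females. Fuom, a fucose mutarotase gene, had a log2 difference of -0.76 at E11.5 and of 1.01 in E13.5 females. Rpl41, a ribosomal protein gene, had a log2 difference of -0.34 at E11.5 and of 0.27 in E13.5 females. Its E11.5 difference was -0.03 under quantile normalization and -0.35 under median scaling. Kdm5c, an X-linked histone demethylase gene, had a log2 difference of 0.39 at E11.5 and of -0.46 in E13.5 females. None of the 6 passed the test at E11.5 under the main settings, and Atp6v0c-ps2 passed with the replicate block and without irradiated replicate 2.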

How the results depend on the processing

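The 2 calls at E11.5 compare with 1 call with no filter, 0 without small RNA genes (limma, with 387 genes at an unadjusted p under 0.05) 3 with a pseudocount of 0.1 and 5 with the replicate block. The block has only 2 pairs and leaves non-irradiated replicate 3 without a partner, so that library does not inform the difference. The numbers are not stated to mark a shared litter. Deviations of same-numbered libraries correlated at 0.16 and 0.25. With 2 irradiated libraries these deviations mirror each other, so the crossed numbers gave -0.16 and -0.25. The values therefore cannot show if the numbers mark pairs. Leaving out each library in turn gave 2 to 17 calls. The 17 came without irradiated replicate 2, where irradiated replicate 1, assumed to vary like the other group, stands alone, and include Atp6v0c-ps2, Gadd45a, Lefty1 and Rps27; 4 came without non-irradiated replicate 2 and 4 without replicate 3. Genes with separated groups numbered 2046, and 3328 to 6417 with a library left out, which follows from fewer libraries to separate. Of these genes 47.4% were higher after IR, against 56.0% under quantile normalization and 43.2% under median scaling. Over 15 alternatives, 657 of 684 named gene values kept direction and side of the threshold, 24 changed sign, and none that was called changed sign. The Snora5c call held in all 14 alternatives in which it was tested and the Snord23 call in 11 of 12; both log2 differences depend on the pseudocount, with ranges of -9.54 to -6.08 and of 5.42 to 8.74. With 2 irradiated libraries, small differences are not detectable, and a missed threshold does not show that a gene did not change.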
